A study of Salmo salar with 72 samples.

Results

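Lysozyme C II (LOC100136365; RefSeq symbol lyz) is a c-type lysozyme gene of Atlantic salmon. It is 1 of the 25830 genes of the deposited expression table, and its values in all 72 RNA-seq libraries of the study are given here. The gene was chosen from these same libraries because its level was low at 30 and 100 µM arsenite and in no other group. Its values at every dose are therefore a description, with no test against the control.

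Hepatocytes were isolated from the livers of 6 male salmon, grown on laminin-coated scaffolds in medium with fetal bovine serum, and exposed for 48 h to 1 of 3 arsenic compounds. The exposed groups were arsenite (AsIII) at 3, 10, 30 and 100 µM, arsenate (AsV) at 10, 50 and 100 µM and arsenobetaine (AsB) at 10, 50, 100 and 500 µM, each compound having its own control without added arsenic. Every AsIII and AsB group held cells of all 6 fish and every AsV group cells of fish 1 to 3, with 1 library per fish, which gave 14 groups. Compounds and doses are those of the library titles and treatment labels. The sample descriptions name an arsenosugar and AsIII but neither AsV nor AsB, and the treatment text lists AsIII only up to 30 µM, so the 100 µM dose rests on the titles and treatment labels. The libraries held 30915262 to 86419022 reads assigned to genes. Of the 40 hepatocyte products listed, such as albumin, apolipoproteins and fibrinogen, 38 were above 0 in all 6 AsIII control libraries. Among the AsIII libraries, fish 1 at 100 µM had 1694 genes at 0 and fish 5 at 30 µM had 1396, while the 6 AsIII controls had 143 to 342.

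Lysozymes cut the peptidoglycan of bacterial cell walls and are part of the first line of antibacterial defence in fish. The c type (chicken type) and the g type (goose type) are separate families that act on the same polymer. In fish, c-type lysozyme is best known from macrophages and neutrophils, where it is held in lysosomes and granules and is also secreted into blood and mucus. A primary hepatocyte culture may hold some of these leukocytes. In such bulk samples, fewer cells of a type and less RNA per cell cannot be told apart.

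Lysozyme C II was detected in every AsIII library at 0, 3 and 10 µM and was close to absent at 30 and 100 µM. The values below are normalised read counts, the reads of the gene divided by the authors' size factor for the library, so that 1 read was worth about 1 unit. At 30 µM AsIII, fish 1 to 6 had 3.71, 0, 7.97, 5.29, 14.2 and 0.757, against 82.5, 93.2, 113, 94.7, 50.1 and 40.2 in the AsIII controls of the same fish. At 100 µM AsIII, fish 1 to 6 had 0, 2.26, 1.20, 0, 2.30 and 4.71. All 12 libraries at these doses lay below all 18 other AsIII libraries, the highest of the 12 being fish 5 at 30 µM and the lowest of the 18 being the fish 6 control.

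The counts behind these levels were few. Over the 6 fish, 30 reads came from lysozyme C II at 30 µM (0.119 per 1000000 reads; exact Poisson 95% interval 0.0805 to 0.170) and 9 reads at 100 µM (0.0426 per 1000000 reads; 0.0195 to 0.0808), against 493 reads in the AsIII controls (2.12 per 1000000 reads; 1.94 to 2.32). Intervals and limits of this kind cover counting error only. At 30 µM, 1 library had no read and 2 had fewer than 3; at 100 µM, 2 had no read and 5 had fewer than 3. A count of 0 allows up to 3 reads, so lysozyme C II was at least 30.6-fold lower at 30 µM than in the control of fish 2. By the same limit it was at least 29.7-fold lower at 100 µM in fish 1 and at least 23.4-fold lower in fish 4.

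The mean level was 5.33 ± 5.26 at 30 µM AsIII and 1.75 ± 1.77 at 100 µM, against 79.0 ± 28.2 in the AsIII controls (SD, n = 6 each). These means are 6.74% and 2.21% of the control mean, or 14.8-fold and 45.3-fold lower, and lysozyme C II was lower than in the same fish's control in 6 of 6 fish at both doses. Single libraries weigh on such small means. Without fish 5 the mean at 30 µM was 3.55, and without fish 6 the mean at 100 µM was 1.15. The libraries with many genes at 0 were fish 5 at 30 µM and fish 1 at 100 µM. Without them, an alternative chosen after the data were seen, the means were 3.55 and 2.09. The 100 µM level was below the 30 µM level in 4 fish and above it in 2, and the ranges overlapped, so those doses did not differ beyond their spread.

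In normalised counts the 2 lower AsIII doses looked like the control. At 3 µM the 6 fish had 69.8, 123, 145, 156.7, 46.6 and 53.1 (mean 99.1 ± 48.5), and at 10 µM they had 77.1, 105, 115, 42.6, 76.0 and 48.3 (mean 77.4 ± 29.2). The level was higher than in the same fish's control in 4 of 6 fish at both doses. The drop in the mean lay between 10 and 30 µM, and the ranges at these doses did not overlap. The lowest value at 10 µM was 42.6 in fish 4, and the highest at 30 µM was 14.2 in fish 5. Against the same fish's control, both of these libraries were at an intermediate level. The AsIII control had 94.7 in fish 4 and 50.1 in fish 5.

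**Figure D1:**
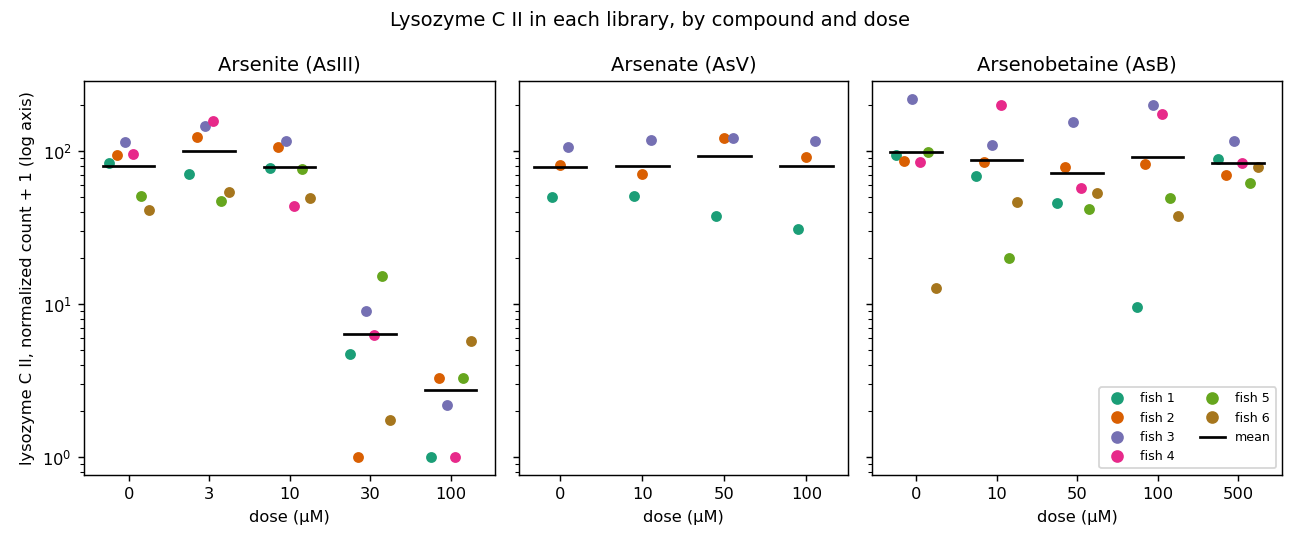
Normalised read count of lysozyme C II plus 1, on a log axis, in each of the 72 libraries by compound and dose (µM, 0 being the compound's control); points are fish and bars are group means. The 12 libraries at 30 and 100 µM AsIII lie between 0 and 14.2, while the other 18 AsIII libraries lie between 40.2 and 156.7.

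On the scale of log2(normalised count + 1), where the added 1 makes differences of scarce genes smaller than they are, lysozyme C II differed from the AsIII control by 0.25 at 3 µM, -0.03 at 10 µM, -4.10 at 30 µM and -5.05 at 100 µM (SE 0.53 each, limma fit over the 30 AsIII libraries). Ranked over the 25801 genes kept by the filter on low values, this was the lowest difference at 100 µM and the second lowest at 30 µM. The neighbours in that ranking were LOC106568015, an FGFR4-like receptor gene, at -4.28 at 30 µM, and LOC106580076, a calphotin-like gene, at -4.55 at 100 µM. The difference ranked 15281 and 11669 from the lowest at 3 and 10 µM. The rank at 30 µM moved with the method, to 4 with a pseudocount of 4 and to 6 with edgeR and with DESeq2 on the recovered reads. With fish left out it was 1 to 9 at 30 µM, being 9 without fish 2, 4 without fish 1 and 1 without fish 3 or fish 5. At 100 µM it was 2 with a pseudocount of 4, 1 with both count methods and 1 with each fish left out. Over the whole table, 84 of 25830 genes (0.325%) had all 12 libraries at 30 and 100 µM below the 18 other AsIII libraries.

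Under AsV, which shares the element and differs in its oxidation state, lysozyme C II was present at every dose. Fish 1, 2 and 3 had 49.1, 80.8 and 105 in the AsV controls, 49.7, 69.6 and 117 at 10 µM AsV, 36.5, 121 and 122 at 50 µM and 30.0, 90.7 and 115 at 100 µM. The log2 differences to the AsV control were -0.01, 0.12 and -0.13 (SE 0.60 each). At 100 µM AsV the lowest library, fish 1, was still above every library at 30 or 100 µM AsIII. All 4 AsV groups overlapped.

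Under AsB, an organic arsenic compound common in marine fish, the level varied more between fish than between doses. The 6 fish spanned 11.7 to 219 in the AsB controls (median 88.9), 19.1 to 199 at 10 µM AsB (median 75.9), 40.9 to 155.2 at 50 µM (median 54.2), 8.60 to 199 at 100 µM (median 65.1) and 61.4 to 116 at 500 µM (median 80.4). The log2 differences to the AsB control were -0.11, -0.23, -0.31 and 0.11 in rising dose (SE 0.60 each). Of the 60 libraries outside 30 and 100 µM AsIII, 2 fell below the highest library at those doses. They were fish 1 at 100 µM AsB, at 8.60, and the AsB control of fish 6, at 11.7. Both fish had other AsB libraries at usual levels, 88.6 in fish 1 and 77.9 in fish 6 at 500 µM. The AsB libraries had 483 to 2896 genes at 0, more than most AsIII libraries, and lysozyme C II had reads in all 30 of them.

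Ordered by mean, the 14 groups began with AsIII at 3 µM (99.1), the AsB control (98.4), AsV at 50 µM (92.9), AsB at 100 µM (91.3), AsB at 10 µM (87.3) and AsB at 500 µM (82.5). There followed the AsIII control (79.0), AsV at 10 µM (78.8), AsV at 100 µM (78.7), the AsV control (78.4), AsIII at 10 µM (77.4) and AsB at 50 µM (71.3), and then AsIII at 30 µM (5.33) and 100 µM (1.75). Among the first 12, neighbours differed by at most 6.12, less than the smallest SD of any of those groups (18.9). The first and last of the 12, at 99.1 ± 48.5 and 71.3 ± 43.1 (SD), lay further apart. Their ranges over the 6 fish overlapped, at 46.6 to 156.7 and 40.9 to 155.2. The order of the 12 was not tested.

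The gene was chosen as present in all 3 control groups, so a control with a very low level would have excluded it. A large difference between controls was thus unlikely beforehand, and the lack of one is not evidence that the controls were equal. The control levels were compared with limma on log2(normalised count + 1) over all 72 libraries. Lysozyme C II differed by -0.01 ± 0.71 between the AsIII and AsV controls, by -0.00 ± 0.71 between the AsB and AsV controls and by 0.01 ± 0.58 between the AsB and AsIII controls (log2 ± SE, adjusted p = 1 each, Benjamini-Hochberg). The AsV controls hold fish 1 to 3 only, and in all 3 of these fish both other controls were higher than the AsV control. With fish as a block the differences to the AsV control were 0.169 for AsIII and 0.178 for AsB. Between the AsB and AsIII controls, 3 fish were higher and 3 lower. No gene passed an adjusted p of 0.05 in these 3 comparisons with limma (0.0% of 25830 genes), although 0.635%, 4.04% and 4.12% of genes had an unadjusted p under 0.05. The counts were 0, 1 and 0 with edgeR, and 0, 2 and 4 with DESeq2. With standard errors of 0.58 to 0.71, differences of about that size between the controls were not detectable.

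The fish themselves differed. Over the groups other than 30 and 100 µM AsIII, the median level was 58.9 in fish 1, 84.4 in fish 2, 116 in fish 3, 89.3 in fish 4, 49.1 in fish 5 and 47.1 in fish 6. Fish 3 had the highest level of the 6 fish in 6 of 8 groups and the highest of its 3 in 4 of 4 AsV groups, whereas fish 5 was lowest in 4 of 8 groups and fish 1 was lowest in 4 of 4 AsV groups. A limma F test of the fish term, chosen after the data were seen, gave an adjusted p of 0.00368 over all 72 libraries, where 44.1% of genes passed, and of 0.0178 over the 30 AsB libraries, where 28.3% of genes passed. Over the 60 libraries outside 30 and 100 µM AsIII the adjusted p was 1.91e-05, with 38.4% of genes passing. Differences between fish were thus common in the table, and lysozyme C II was 1 of many genes with one.

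**Figure D2:**
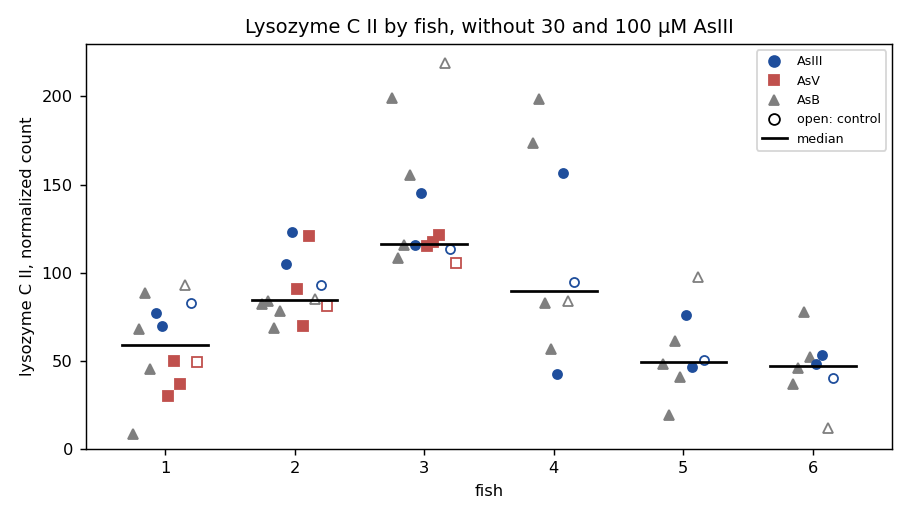
Normalised read count of lysozyme C II by fish in the 60 libraries outside 30 and 100 µM AsIII; symbols mark the compound, open symbols are controls and bars are medians. Fish 3 has the highest median (116), and fish 5 and 6 have the lowest (49.1 and 47.1).

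The g-type lysozyme genes went the other way under AsIII. LOC100136420 (lysozyme g) had 5857 to 7700 normalised counts at 30 µM (median 6891) and 5866 to 8104 at 100 µM (median 6888), against 4268 to 5701 in the AsIII controls (median 5270), with no overlap at either dose. Its log2 difference was -0.03 at 3 µM (adjusted p = 0.835), 0.34 at 10 µM (adjusted p = 0.00282), 0.41 at 30 µM (adjusted p = 0.000563) and 0.43 at 100 µM (adjusted p = 0.000362), with an SE of 0.09 and 6 of 6 fish higher from 10 µM on. The second gene, lyg, had 607 to 922 at 30 µM and 613 to 820 at 100 µM, against 431 to 673 in the controls, so the groups overlapped, but each fish was above its own control. It rose by 0.55 ± 0.12 at 10 µM, 0.52 ± 0.12 at 30 µM and 0.46 ± 0.12 at 100 µM (adjusted p = 0.000192, 0.000479 and 0.00172, limma). At 10 µM, where lysozyme C II was at the control level, both were already higher.

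The third g-type gene, LOC106587400 (lysozyme G-like), was scarce and followed another course. The 6 fish had 0 to 11.5 normalised counts in the AsIII controls, 3 of which were at 0, 17.0 to 38.8 at 3 µM AsIII, 10.7 to 39.5 at 10 µM, 2.64 to 40.1 at 30 µM and 0 to 27.8 at 100 µM. It rose by 3.32 ± 0.77 at 3 µM (adjusted p = 0.000425, 6 of 6 fish), 3.08 ± 0.77 at 10 µM (adjusted p = 0.00125, 6 of 6 fish) and 2.53 ± 0.77 at 30 µM (adjusted p = 0.00819, 5 of 6 fish). At 100 µM the difference was 1.10 ± 0.77 (adjusted p = 0.261). Of the 3 g-type genes, 1, 3, 3 and 2 rose at 3, 10, 30 and 100 µM, where 29.5%, 26.8%, 23.9% and 22.6% of all 25801 genes rose. A decline was called for 0 of 3 at any AsIII dose with limma, at an unadjusted p under 0.05, or with edgeR or DESeq2.

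Under AsV and AsB, 0 g-type genes were past the threshold with limma, at an unadjusted p under 0.05, or with edgeR or DESeq2, LOC106587400 being too low to be tested under AsB. At 100 µM AsV, LOC100136420 differed by 0.03 ± 0.27 and lyg by -0.11 ± 0.27 on the log2 scale (adjusted p = 0.968 and 0.86, limma). At 500 µM AsB they differed by -0.12 ± 0.13 and 0.31 ± 0.20 (adjusted p = 1 each). None of the 25492 genes tested passed at any AsB dose with limma (0.0%), where 542 to 848 genes had an unadjusted p under 0.05; edgeR called 0 genes and DESeq2 0 to 2.

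**Figure D3:**
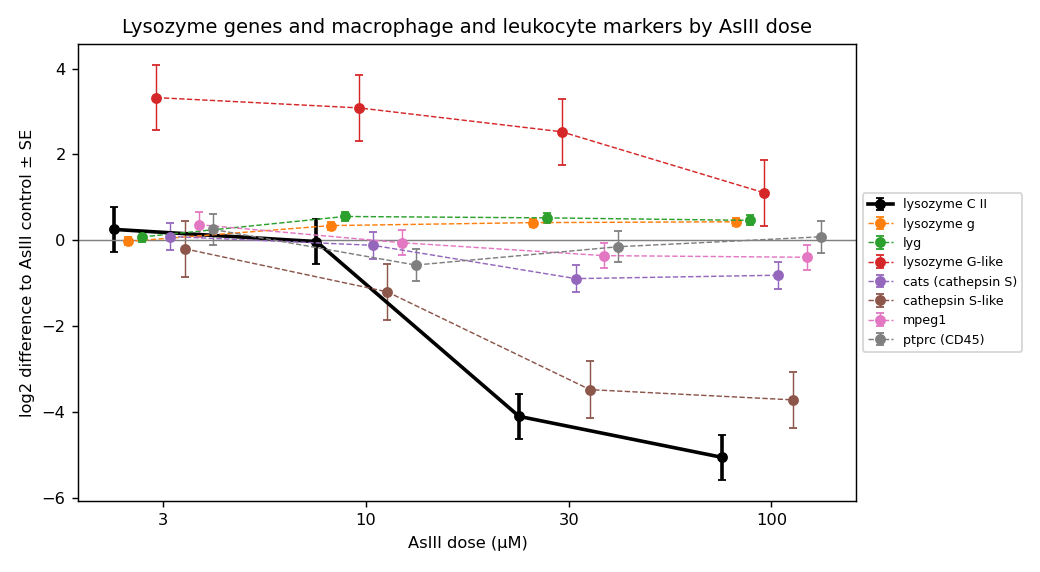
Log2 difference to the AsIII control ± SE (limma, log2 of normalised count + 1, n = 6 fish per group) at 4 AsIII doses (µM) for lysozyme C II, the 3 lysozyme g genes and 4 macrophage or leukocyte markers, with points offset sideways for legibility. Lysozyme C II and the cathepsin S-like gene lie below -3 at 30 and 100 µM, while lysozyme g and lyg lie above 0 from 10 µM on. The markers shown are a selection, with mpeg1 and the cathepsin S-like gene picked after their values were seen. They include the 2 macrophage genes that fell at both high doses and none of the 3 that rose at both.

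Other antibacterial effectors were mostly not past the threshold. Of 11 measured genes of this kind, 3 rose and 1 fell at 30 µM AsIII, and 3 rose and 1 fell at 100 µM. Of all genes, 23.9% rose and 17.7% fell at 30 µM, and 22.6% rose and 17.3% fell at 100 µM. The median log2 difference of the list was 0.33 and 0.25, beside 0.04 and 0.04 over all genes. LOC106584587, a hepcidin-1 gene for the iron-regulating antimicrobial peptide, fell at both doses (log2 difference -0.96 ± 0.12 at 30 µM and -0.97 ± 0.12 at 100 µM, 6 of 6 fish lower). The other hepcidin gene, hepc1, was at -0.03 ± 0.10 at 30 µM and rose by 0.25 ± 0.10 at 100 µM (adjusted p = 0.0441, not past the threshold with edgeR, adjusted p = 0.171, or DESeq2, adjusted p = 0.133). LOC106564993, an N-acetylmuramoyl-L-alanine amidase-like gene whose enzyme class also cuts peptidoglycan, rose by 0.51 ± 0.12 and 0.46 ± 0.12 (adjusted p = 0.000746 and 0.00228). LOC106604583, a gene like leukocyte cell-derived chemotaxin-2, rose at 30 µM (0.64 ± 0.26, adjusted p = 0.0487) and was at 0.57 ± 0.26 at 100 µM (adjusted p = 0.0796, and 3.13e-09 with fish as a block). The rise at 30 µM did not pass with library-size scaling (adjusted p = 0.101) or edgeR (adjusted p = 0.0631).

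Because c-type lysozyme is known from macrophages and neutrophils, leukocyte markers were read beside it. The 37 measured genes of the macrophage, neutrophil, pan-leukocyte and lymphocyte lists showed no drop in summed level. It was 10703 to 21690 at 30 µM (median 16929) and 10158 to 20469 at 100 µM (median 16840), against 10815 to 22303 in the AsIII controls (median 16587). At 30 µM 9 rose and 4 fell, and at 100 µM 10 rose and 4 fell, beside 23.9% and 22.6% of all genes rising and 17.7% and 17.3% falling. The list medians were 0.38 and 0.23, beside 0.04 over all genes at both doses. With fish as a block 14 rose and 6 fell at 30 µM, and 15 rose and 5 fell at 100 µM. In that fit 13132 and 12802 of all 25801 genes were called in either direction, against 10727 and 10306 without the block. Every one of the 37 was above 0 in at least 1 library of both doses, but so was lysozyme C II, so this does not set them apart.

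Of the 18 macrophage genes alone, 3 rose and 2 fell at 30 µM, and 4 rose and 3 fell at 100 µM, with medians of 0.26 and 0.07. Of all genes, 23.9% and 22.6% rose and 17.7% and 17.3% fell, with a median of 0.04 at both doses. With fish as a block the macrophage rises numbered 7 at both doses and the falls 4 at both. In that fit 13132 and 12802 of all 25801 genes were called in either direction. The macrophage genes that rose at both doses were named after their values were seen. LOC106587384, like the light chain of cytochrome b-245 in the phagocyte oxidase, rose by 2.02 ± 0.24 at 30 µM and 1.51 ± 0.24 at 100 µM (6 of 6 fish higher). The legumain-like gene LOC106589466 rose by 1.77 ± 0.38 and 2.52 ± 0.38 (6 of 6 fish higher). The macrophage mannose receptor 1-like gene LOC106561265 rose by 1.59 ± 0.60 and 1.71 ± 0.60 (adjusted p = 0.0334 and 0.0232, limma). It did not pass with edgeR at either dose (adjusted p = 0.0989 and 0.0717) or without fish 3. At 30 µM it also did not pass with library-size scaling, with DESeq2, without fish 4 or without fish 5, and at 100 µM it did not pass without fish 6.

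Several defining leukocyte and macrophage genes were not past the threshold. For ptprc, which encodes the pan-leukocyte phosphatase CD45, the 6 fish had 8.77 to 41.9 at 30 µM and 19.5 to 40.7 at 100 µM, against 13.8 to 48.2 in the controls. The log2 differences were -0.15 ± 0.37 and 0.08 ± 0.37 (adjusted p = 0.773 and 0.883, limma), and the value at 100 µM changed sign with library-size scaling, edgeR and DESeq2. For mpeg1, the pore-forming macrophage-expressed gene 1, the fish had 28.9 to 78.1 at 30 µM and 32.4 to 84.8 at 100 µM, against 54.8 to 99.3 in the controls, with differences of -0.36 ± 0.29 and -0.40 ± 0.29 (adjusted p = 0.342 and 0.292). The gene mpeg1 was singled out after its values were seen. The legumain gene lgmn, a lysosomal protease of macrophages and other cells, was at -0.17 ± 0.31 and -0.18 ± 0.31 (adjusted p = 0.689 and 0.676), and was past the threshold with fish as a block (adjusted p = 0.0346 and 0.0272). Among the neutrophil genes, mmp9, a gelatinase, was at -0.70 ± 0.52 and -0.60 ± 0.52 (adjusted p = 0.29 and 0.372), and alox5ap, which serves leukotriene synthesis, was at 0.34 ± 0.21 at 30 µM and rose by 0.65 ± 0.21 at 100 µM (adjusted p = 0.0139).

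Some leukocyte genes did fall. Cathepsin S, a lysosomal protease of antigen-presenting cells, was lower at both doses. Its gene cats had 343, 260, 379, 284, 122 and 590 in fish 1 to 6 at 30 µM and 441, 217, 430, 235, 210 and 472 at 100 µM, against 575, 540, 737, 287, 513 and 850 in the controls. The groups overlapped, but every fish was below its own control, and cats fell at 30 and 100 µM (log2 difference -0.89 ± 0.32 and -0.81 ± 0.32, adjusted p = 0.024 and 0.0405, limma). Of its values at these doses under the alternatives, 16 passed in the same direction. The other 8, all with a fish left out, did not pass. LOC106605328, a cathepsin S-like gene singled out after its values were seen, resembled lysozyme C II more closely in the AsIII libraries. It had 0, 0, 2.99, 2.64, 0 and 3.03 at 30 µM and 0, 0, 2.40, 5.39, 0 and 0 at 100 µM, against 20.1, 21.9, 13.8, 28.3, 16.7 and 29.3 in the controls. No exposed library of it reached the lowest control, and it fell at 30 and 100 µM (log2 difference -3.48 ± 0.66 and -3.72 ± 0.66, adjusted p = 6.80e-05 and 3.04e-05). Unlike lysozyme C II, it was already at 0 in fish 1 at 10 µM, where its range was 0 to 21.3. It was also low outside AsIII, where lysozyme C II was not. Under AsV it had 0 to 10.2 at 50 µM and 0 to 13.6 at 100 µM, against 18.6 to 20.6 in the AsV controls. Its medians under AsB were 0.426, 10.1, 1.36 and 2.75 in rising dose, against 26.4 in the AsB controls, with overlapping ranges.

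Among the other leukocyte genes that fell were some CD3 zeta-like genes, LOC106581970 and LOC106586761, of which LOC106586761 was named after its values were seen. LOC106586761 fell at 30 and 100 µM (log2 difference -1.77 ± 0.56 and -2.04 ± 0.56), and LOC106581970 fell by 0.63 ± 0.20 at 30 µM and was at -0.13 ± 0.20 at 100 µM (adjusted p = 0.646). Other lymphocyte genes rose, so the T-cell genes went both ways. Another CD3 zeta-like gene, LOC106575734, and the CD8 beta-like gene LOC106604508 rose at both doses. Both were named after their values were seen. The B-cell linker-like genes LOC106576789 and LOC106585060 rose by 0.85 ± 0.13 and 0.88 ± 0.23 at 30 µM and by 0.78 ± 0.13 and 1.14 ± 0.23 at 100 µM. The vav-like gene LOC106594609, a guanine nucleotide exchange factor of blood cells, rose by 1.78 ± 0.44 and 2.06 ± 0.44. Without fish 4 or without fish 5, the leukocyte genes that fell at 30 µM numbered 2 in place of 4, and without fish 3 they numbered 2 at 100 µM.

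Markers of the other cell types that a liver cell preparation can hold were mixed, apart from those of red blood cells. Of 7 endothelial genes, 2 rose and 3 fell at 30 µM, and 1 rose and 2 fell at 100 µM, beside 23.9% and 22.6% of all genes rising and 17.7% and 17.3% falling. The list median was 0.20 and 0.21. The vascular endothelial growth factor receptor 3-like gene LOC106591130 rose by 0.36 ± 0.15 and 0.53 ± 0.15 (adjusted p = 0.0469 and 0.0047, limma). At 30 µM it did not pass with library-size scaling (0.24, adjusted p = 0.172), edgeR (adjusted p = 0.136), DESeq2 (adjusted p = 0.129) or without fish 2, 3, 5 or 6. The platelet endothelial cell adhesion molecule-like gene LOC106588103, named after its values were seen, rose by 1.41 ± 0.50 at 30 µM (adjusted p = 0.0224, not past the threshold without fish 3 or fish 4). At 100 µM it was at 0.98 ± 0.50 (adjusted p = 0.115, and 0.0421 with edgeR and 0.0248 with DESeq2), and it passed without fish 5. The secreted proteoglycan gene esm1 fell at 30 and 100 µM (log2 difference -3.38 ± 0.87 and -3.24 ± 0.87), and the vascular receptor gene kdr, named after its values were seen, fell at 30 and 100 µM (log2 difference -3.11 ± 0.76 and -2.87 ± 0.76), while stab2, a scavenger receptor of sinusoidal endothelium, was at 0.20 ± 0.36 and 0.21 ± 0.36 (adjusted p = 0.697 and 0.675). The cadherin-5-like gene LOC106587287 fell by 3.31 ± 0.79 at 30 µM and was at -1.92 ± 0.79 at 100 µM (adjusted p = 0.0517, and 0.0316 with fish as a block and 0.0359 with library-size scaling). These falls rest on few reads. In the AsIII controls esm1 and LOC106587287 had means of 36.4 and 17.3 normalised counts, and kdr was lower still. Of the 7 endothelial genes, 3 at 30 µM and 4 at 100 µM were at 0 in some library.

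Stellate, fibroblast and biliary genes were few, and their counts are read against the same shares of all genes, 23.9% rising and 17.7% falling at 30 µM and 22.6% rising and 17.3% falling at 100 µM. Of 6 stellate and fibroblast genes, 1 rose and 1 fell at 30 µM and 2 rose and 1 fell at 100 µM, with a median of -0.71 at both doses. The fibrillar collagen genes went both ways. LOC106577842, like collagen alpha-2(I), fell at 30 and 100 µM (log2 difference -0.76 ± 0.10 and -0.64 ± 0.10), while LOC106567252, like collagen alpha-1(I), rose by 1.35 ± 0.21 and 1.31 ± 0.21. A second alpha-1(I)-like gene, LOC106563133, was at 0.71 ± 0.38 at 30 µM (adjusted p = 0.133, and 0.0345 with edgeR and 0.0216 with DESeq2; past the threshold without fish 4) and rose by 1.09 ± 0.38 at 100 µM (adjusted p = 0.0205, not past the threshold without fish 1 or fish 3). Of 8 biliary genes, 0 rose and 2 fell at 30 µM with limma, and 1 rose and 3 fell at 100 µM; the count of biliary rises at 30 µM was also 0 at an unadjusted p under 0.05 and with edgeR and DESeq2. The biliary median was -0.16 and -0.22. LOC106606426, like Sox-9, a transcription factor of bile duct cells, fell at 30 and 100 µM (log2 difference -1.73 ± 0.31 and -1.52 ± 0.31). The annexin A4-like gene LOC106568236 fell at 30 and 100 µM (log2 difference -0.35 ± 0.10 and -0.50 ± 0.10), but did not pass at 30 µM without fish 3. The other annexin A4-like gene, LOC106589908, was at -0.21 ± 0.11 at 30 µM (adjusted p = 0.139, and 0.0132 with library-size scaling, 0.00231 with fish as a block and 0.0463 with edgeR). It fell by 0.29 ± 0.11 at 100 µM (adjusted p = 0.0444, not past the threshold without any 1 of fish 1 to 5).

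Erythroid genes moved in the same direction as lysozyme C II. Their summed level over 8 genes was 4.98 to 202 at 30 µM (median 35.7) and 0 to 113 at 100 µM (median 40.97), against 90.2 to 460 in the AsIII controls (median 119), so the groups overlapped. Each of the 8 was at 0 in some library at 100 µM. Of the 8, 4 globin genes fell at both doses, where 17.7% and 17.3% of all genes fell, and the list median was -2.09 and -2.44, beside 0.04 over all genes at both doses. LOC106607375 (hemoglobin subunit alpha-4) fell at 30 and 100 µM (log2 difference -2.32 ± 0.80 and -3.09 ± 0.80), and LOC100136576 (hemoglobin subunit beta) fell at 30 and 100 µM (log2 difference -2.30 ± 0.84 and -3.09 ± 0.84). The beta-like LOC106607372 was lower by a log2 difference of -2.20 ± 0.81 and -2.55 ± 0.81 (adjusted p = 0.0291 and 0.0126), and LOC106601074 by -1.89 ± 0.75 and -2.33 ± 0.75 (adjusted p = 0.0418 and 0.013). The number of erythroid falls moved with the method, to 6 at 30 µM and 7 at 100 µM with fish as a block, to 1 and 3 with edgeR and to 3 at both doses with DESeq2. At 30 µM, LOC106607375 did not pass with edgeR (-1.66, adjusted p = 0.0918) or DESeq2 (-1.65, adjusted p = 0.0739), or without fish 3 or fish 4. LOC106607372 and LOC106601074 did not pass at 30 µM with edgeR (adjusted p = 0.0532 and 0.0696), and LOC106601074 did not pass at 100 µM with edgeR (adjusted p = 0.118) or DESeq2 (adjusted p = 0.0884). LOC100136576 passed with both count methods at both doses. With fish left out, calls at 30 µM were lost for LOC100136576 without fish 2 or 3, for LOC106607372 without fish 3, 4, 5 or 6 and for LOC106601074 without fish 3, 5 or 6. At 100 µM they were lost for LOC106607372 without fish 6 and for LOC106601074 without fish 1 or 4. The count of erythroid rises at these doses was 0 with limma, at an unadjusted p under 0.05, and with edgeR and DESeq2. At 3 and 10 µM, where lysozyme C II was at its control level, the erythroid medians were -0.53 and -1.27, with 2 and 1 rises (29.5% and 26.8% of all genes rose) and summed levels of 274 to 744 and 33.6 to 481. The part of residual blood cells in the lysozyme C II values was not tested.

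**Figure D4:**
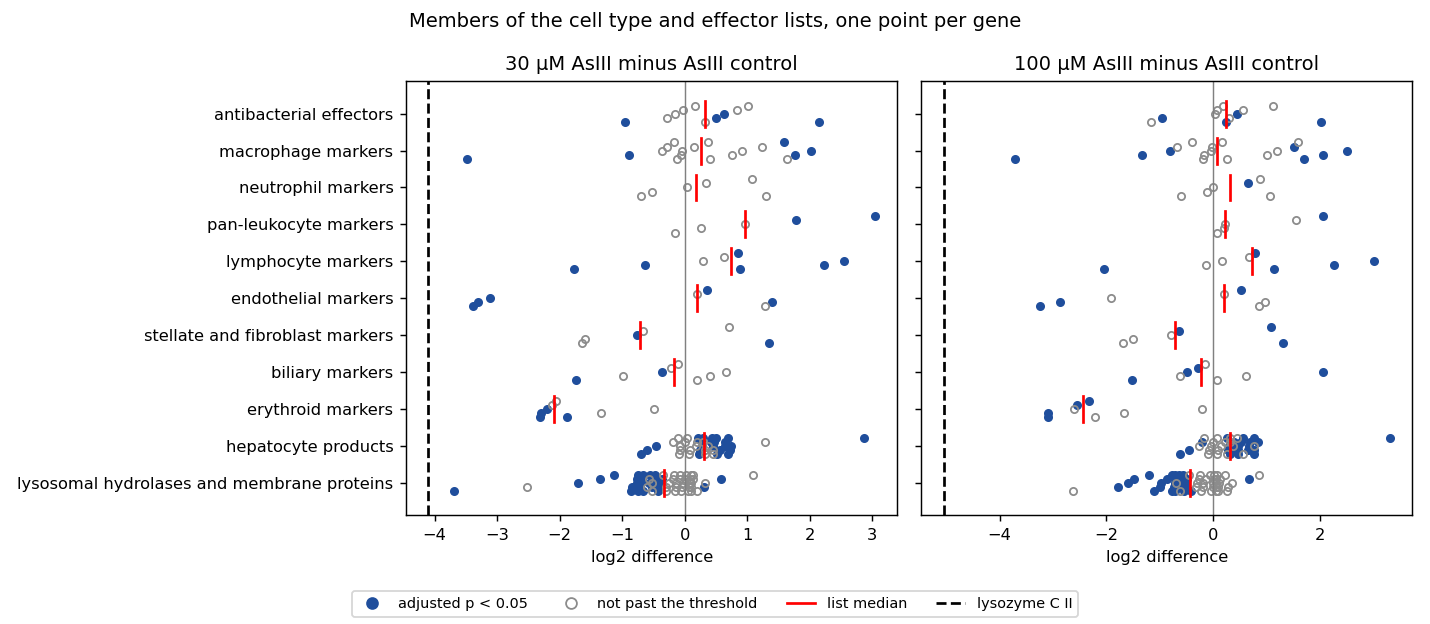
Log2 difference to the AsIII control (x axis) of each measured gene of 11 lists at 30 µM (left) and 100 µM AsIII (right); filled points passed an adjusted p of 0.05 in limma, red bars are list medians and the dashed line is lysozyme C II. The lysozyme C II line, at -4.10 and -5.05, lies to the left of every listed gene at both doses.

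Hepatocyte products showed no drop in summed level. Their summed level was 6757710 to 8425640 at 30 µM and 6959460 to 8708430 at 100 µM, against 6593690 to 7377650 in the AsIII controls. Of 40 genes, 19 rose and 3 fell at 30 µM and 19 rose and 3 fell at 100 µM, with 18 of the rises at both doses. Of all genes, 23.9% rose and 17.7% fell at 30 µM, and 22.6% rose and 17.3% fell at 100 µM. The list median was 0.31 and 0.32, beside 0.04 over all genes at both doses. The rises numbered 26 and 27 with fish as a block, 14 and 16 with edgeR and 15 and 16 with DESeq2. The apolipoprotein A-I gene LOC100136573 rose by 0.27 ± 0.10 and 0.26 ± 0.10 (adjusted p = 0.0298 and 0.0424), and did not pass with library-size scaling (0.15 and 0.17, adjusted p = 0.215 and 0.146), edgeR (adjusted p = 0.0959 and 0.124) or DESeq2 (adjusted p = 0.0915 and 0.0971).

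Genes of the lysosome, the organelle that stores c-type lysozyme in phagocytes, shifted downward at the same doses but far less. Of 60 lysosomal hydrolase and membrane protein genes, 24 fell and 2 rose at 30 µM and 27 fell and 1 rose at 100 µM, with 23 of the falls at both doses. Of all genes, 17.7% fell and 23.9% rose at 30 µM, and 17.3% fell and 22.6% rose at 100 µM. The list median was -0.32 and -0.43, beside 0.04 over all genes at both doses. Prosaposin-like LOC106589952, the precursor of sphingolipid-degrading cofactors, had its 12 libraries at 30 and 100 µM below the 18 other AsIII libraries, as had 4 of the 60 genes in all and 0.325% of the whole table. It fell at 30 and 100 µM (log2 difference -0.55 ± 0.08 and -0.61 ± 0.08). The cathepsin L1 gene catl1 fell at 30 and 100 µM (log2 difference -0.70 ± 0.10 and -0.64 ± 0.10), and the cathepsin B gene catb fell at 30 and 100 µM (log2 difference -0.41 ± 0.13 and -0.61 ± 0.13). The cathepsin F-like gene LOC106612102 was at -0.25 ± 0.15 and -0.26 ± 0.15 (adjusted p = 0.183 and 0.166, and 0.000154 and 9.38e-05 with fish as a block; 0.0432 at 30 µM with library-size scaling). The genes that rose were neu1, a sialidase, at both doses (0.59 ± 0.20 and 0.68 ± 0.20) and the acid lipase-like LOC106578958 at 30 µM (0.31 ± 0.09), both named after their values were seen. With library-size scaling neither passed at 30 µM.

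At 3 and 10 µM AsIII, 15 and 5 of the 60 lysosomal genes rose and 14 and 16 fell, where 29.5% and 26.8% of all genes rose and 25.0% and 20.5% fell. With fish as a block the lysosomal rises at 10 µM numbered 14. Among the 37 leukocyte genes, 12 rose and 2 fell at 3 µM and 10 rose and 1 fell at 10 µM, with medians of 0.36 and 0.60, beside 0.05 and 0.06 over all genes, at doses where lysozyme C II was at its control level. With fish as a block the leukocyte rises at 10 µM numbered 20. Of all 25801 genes, 14458 were then called in either direction at 10 µM, against 12189 without the block. Under AsV, 1 of the 36 leukocyte genes tested rose and 2 fell at 50 µM, and 0 rose and 1 fell at 100 µM, beside 4.23% and 4.47% of all genes rising and 2.74% and 2.21% falling. The leukocyte rises at 100 µM AsV, 0 with limma, numbered 1 with edgeR, 3 with DESeq2 and 3 at an unadjusted p under 0.05. Of all 25465 genes, 1904 were called in either direction with edgeR and 3292 with DESeq2, and 22.2% had an unadjusted p under 0.05.

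The genes whose levels tracked lysozyme C II most closely over the 72 libraries were mostly mitochondrial. Likeness was measured as Pearson's r of log2(normalised count + 1), and all points share the 12 low libraries at 30 and 100 µM AsIII. The highest r was 0.87 for CYTB, followed by 0.84 for COX1, 0.83 for COX2, 0.82 for ND2 and COX3, 0.80 for ND1, 0.78 for LOC106565438 (tubulin alpha-1C) and LOC106574874 (uncharacterised), 0.76 for ND6 and 0.75 for rragc, a GTPase of nutrient sensing at the lysosome. Of these 10 genes, 7 are encoded in the mitochondrial genome and make subunits of respiratory complexes. The 13 mitochondrially encoded genes had a median r of 0.76 over the 72 libraries, but 0.086 over the 60 libraries outside 30 and 100 µM AsIII and 0.50 over the 15 controls.

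The mitochondrial genes given here were lowest at 30 and 100 µM, and some were below the controls at lower doses already. Being picked for their likeness to lysozyme C II, their values are a description with no test. CYTB had 31296 to 59634 normalised counts at 30 µM and 23081 to 48843 at 100 µM, against 171210 to 211024 in the AsIII controls, with no overlap. At 3 and 10 µM it had 148996 to 242791 and 141184 to 207287, which overlapped the controls. For ND2 the 6 fish had 6981 to 9609 in the AsIII controls, 2928 to 5401 at 3 µM, 4549 to 6879 at 10 µM, 736 to 1512 at 30 µM and 563 to 1750 at 100 µM. Its libraries thus lay below all controls at every dose, and lowest at 30 and 100 µM. The median log2 difference of the 13 genes was -0.37 at 3 µM and -0.64 at 10 µM, where lysozyme C II was at its control level, and -2.27 and -2.26 at 30 and 100 µM. The log2 differences at 30 and 100 µM were -2.27 ± 0.16 and -2.63 ± 0.16 for CYTB, -2.96 ± 0.22 and -3.12 ± 0.22 for ND2, and -3.35 ± 0.23 and -3.04 ± 0.23 for ND1, all smaller than those of lysozyme C II.

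The 13 mitochondrial genes held a median of 2.73% of reads in the AsIII controls, 2.39% at 3 µM, 1.87% at 10 µM, 0.602% at 30 µM and 0.534% at 100 µM. Within the 12 libraries at the high doses the order differed in part. At 30 µM, fish 2, with no lysozyme C II read, had the highest share of its group (0.937%), and fish 5, with the most reads, had 0.798%. At 100 µM, fish 4 and fish 1, with no read, had the lowest shares (0.448% and 0.523%). Fish 6, with the most reads at that dose, had 0.529%, while the highest shares were in fish 5 and fish 2 (0.970% and 0.903%). At 100 µM AsV the share was 1.55% to 2.35%, against 2.24% to 2.73% in the AsV controls, with lysozyme C II at its control level. The part of a change in mitochondrial RNA in the lysozyme C II values was not tested.

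**Figure D5:**
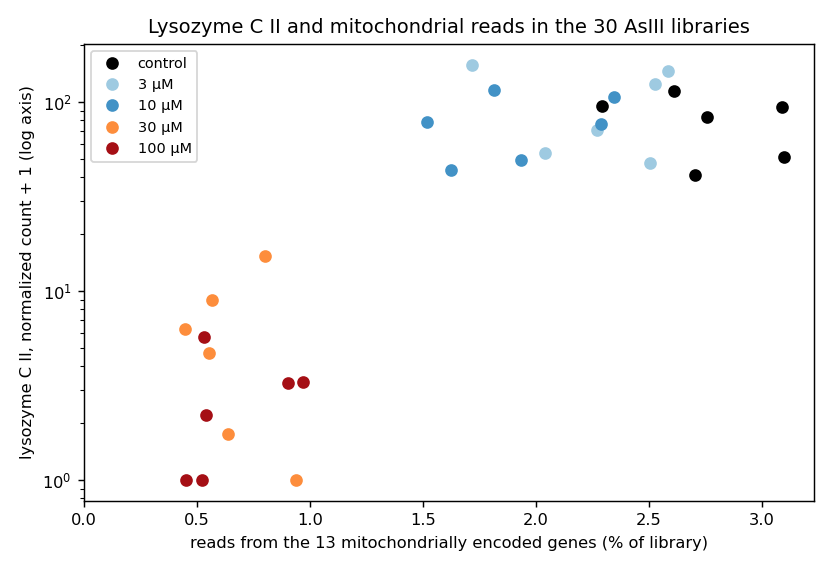
Normalised read count of lysozyme C II plus 1 (log axis) against the percent of reads from the 13 mitochondrially encoded genes in the 30 AsIII libraries, coloured by dose. The 12 libraries at 30 and 100 µM form one cloud below 1% and at no more than 14.2 normalised counts, apart from the 18 libraries at 0, 3 and 10 µM.

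Over the 15 control libraries alone, where no AsIII effect enters, the most similar genes were different ones. They were dnajc2, a ribosome-associated chaperone (r = 0.90), LOC106593171 (uncharacterised, 0.90), LOC106594652 (TBC1 domain family member 1-like, 0.89), tesk1 (0.89), rrp12 (0.89), LOC106586540 (ephrin type-A receptor 6-like, 0.87), LOC106602585 (pre-mRNA-processing factor 19-like, 0.87), crym (0.87), LOC106567952 (PR domain zinc finger protein 15-like, 0.86) and enosf1 (0.86). None of the 10 belongs to the leukocyte, lysosomal or antibacterial lists. Those lists hold only 37, 60 and 11 of the 25824 genes ranked, too few for their absence to be read as a result. Over these controls the median r was 0.04 for the 18 macrophage genes, 0.01 for the 6 neutrophil genes, 0.03 for the 3 g-type lysozymes and 0.01 for the 60 lysosomal genes, beside -0.00 over all genes. The 15 points come from 6 fish, so they share animals as well as libraries.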

How the data were processed

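The authors deposited 1 table of gene expression for 72 libraries. Per the submitters' processing notes it came from HISAT2, featureCounts (Subread) and DESeq2 1.40.2; which genome build, strand setting and rule for reads of similar gene copies were used is not stated in the labels or headers. The deposited values are a signal, counts divided by DESeq2 size factors, and gave whole reads for 100% of entries (tolerance 0.01). Each of the 25830 deposited genes reached 10 in 10 libraries or more. The lysozyme gene was chosen, and the lists fixed, with earlier results of these data known.

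Each compound's libraries were fitted with limma 3.58.1 (R 4.3.3, trend, robust) on log2(value + 1), for genes at 10 or more in as many libraries as the smallest group, with Benjamini-Hochberg adjustment at 0.05 over all genes. This main fit held group means and no fish term. Its SE and adjusted p, given throughout unless another method is named, therefore do not use the pairing of libraries by fish. Named were the lysozyme genes, the 10 genes most alike over 72 and over 15 control libraries and the 4 members of each list with the highest control mean; of the last, some are given with values and the others only counted. Lists were matched by gene name, and 3 wrong matches were dropped; 1 listed gene is counted but not reported here. Alternatives were a pseudocount of 4, no filter, library-size scaling, fish as a block, edgeR 4.0.16, DESeq2 1.42.0 and leaving out each fish.

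The same fish gave a library to each group, so fish numbers pair the libraries by design; deviations of the same fish correlated by 0.480 on average in AsIII, 0.232 in AsV and 0.306 in AsB groups. No replicates were copies: the least different of 162 pairs within groups had a chi-square of 18.7 per gene. The fit was tested on simulated data.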

Additional observations from a re-analysis of the deposited data

Results flagged for a closer look

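Of 39 gene and group combinations examined for a fish far from the others, 6 stood out. Chance gives about 1 in 20 for values that vary freely, which does not hold for the 4 where the other 5 fish are at 0 and any value above 0 stands out. Lysozyme C II in fish 3 at 50 µM AsB was at 155.194 normalised counts, with the other 5 fish at 40.9 to 78.2. The g-type gene lyg in fish 1 at 50 µM AsB was at 774.68, with the next fish at 639. The lysozyme G-like gene LOC106587400 was above 0 in a single fish in 4 AsB groups: at 7.63551 in fish 4 at 10 µM, at 14.8364 in fish 4 at 50 µM, at 11.6291 in fish 3 at 100 µM and at 5.89838 in the fish 2 control. The other 5 fish of each of these groups were at 0.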

How the results depend on the processing

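The level of lysozyme C II in each group moved by less than 1 SD with library-size scaling. Leaving out 1 fish cannot move a group mean by 1 SD, so no such limit is applied to it. With fish left out, the mean ran from 3.55 to 6.39 at 30 µM AsIII and from 1.15 to 2.09 at 100 µM. Its log2 difference ranged over the alternatives between -4.57 and -3.26 at 30 µM AsIII and between -5.57 and -3.83 at 100 µM. The differences between control groups were near 0, and their sign turned under several alternatives. The AsIII minus AsV control was 0.169 with fish as a replicate block, 0.0156 with edgeR and 0.0133 with DESeq2, and -0.340 to 0.163 with fish left out. The AsB minus AsV control was 0.0259 with a pseudocount of 4, 0.178 with the fish block, 0.311 with edgeR and 0.327 with DESeq2, and -0.362 to 0.514 with fish left out. The AsB minus AsIII control was -0.0148 with library-size scaling and -0.178 to 0.351 with fish left out.

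Lysosomal rises at 30 µM numbered 0 with library-size scaling, 4 with the fish block and 1 to 3 with fish left out; at 100 µM they numbered 5 with the block and 1 to 2 with fish left out. Leukocyte rises at 30 µM numbered 14 with the block, and leukocyte falls numbered 6. With fish left out, leukocyte falls numbered 2 to 4 at 30 µM and 2 to 3 at 100 µM. For ptprc the difference at 100 µM was -0.000613 with library-size scaling, -0.0352 with edgeR, -0.0116 with DESeq2 and -0.178 to 0.349 with fish left out, and at 30 µM it was -0.487 to 0.286. With fish left out, hepc1 at 30 µM was -0.0510 to 0.00852. The causes of these shifts were not tested. Of all 25801 genes, 10727 and 10306 were called in either direction at 30 and 100 µM AsIII with limma. The calls numbered 13132 and 12802 with the fish block, 10840 and 10467 with edgeR and 11403 and 10982 with DESeq2. Of 1342 values of 56 named genes under the alternatives, 1218 kept their direction and their side of the threshold. Library-size scaling moved the median of all genes at 30 µM AsIII to -0.09, and 44.4% of calls were then rises, against 57.5%; at 3 and 10 µM it moved that median to -0.21 and -0.24, and 37.8% and 32.5% of calls were rises, against 54.1% and 56.7%. Depth limits lysozyme C II at 100 µM, where 9 reads carry the level.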

Other observations

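Over the 60 libraries outside 30 and 100 µM AsIII, a choice made after the data were seen, the gene most like lysozyme C II was rag2, which encodes a lymphocyte recombinase subunit (r = 0.67). The perforin-1-like genes LOC106594578 and LOC106595638, whose protein class forms pores in target cells, had r = 0.60 and 0.59, and the CD5 antigen-like gene LOC106570622 had r = 0.57. Also among the 10 most alike were LOC106596194 (uncharacterised, 0.65), LOC106591903 (polyadenylate-binding protein 1-like, 0.60) and LOC106595829 (KIAA1143 homolog, 0.60). The rest were LOC106573610 (a channel-like gene, 0.59), LOC106610528 (up-regulator of cell proliferation-like, 0.56) and arc1b (0.55). The median r over the 60 libraries was -0.05 for the macrophage list, 0.05 for the neutrophil, -0.10 for the pan-leukocyte and 0.12 for the lymphocyte list. These 60 points come from 6 fish that differ in lysozyme C II level, so fish are shared between them. CD5 antigen-like LOC106570622 did not drop at the high AsIII doses: the 6 fish had 45901 to 90700 normalised counts at 30 µM and 48934 to 100850 at 100 µM, against 36638 to 74250 in the AsIII controls.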
